A study of Mus musculus with 18 samples.

Results

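The genes described here are 10 immediate early genes whose products form or accompany the AP-1 and Egr transcription factors, namely Jun, Junb, Jund, Fos, Fosb, Fosl2, Egr1, Ier2, Ier5 and Atf3. They were found by symbol in both deposited tables, which were joined on the gene identifier, and are 10 of 23038 genes. A mean of at least 10 RPKM (reads for each kilobase of the gene in every M reads, where M stands for 1000000) over the 6 groups was asked of a gene before ratios were counted. This left 6295 genes, among them Jun, Junb, Fos, Egr1 and Ier2. Egr1 lay just inside that limit with a mean of 15.1 RPKM, and Jund just outside it with 8.54 RPKM. Jund, Fosb, Fosl2, Ier5 and Atf3 are described by their values.

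Haematopoietic stem cells (HSCs) were sorted from the bone marrow of adult C57BL/6 mice as Lin- Sca1+ cKit+ CD150+ CD48- cells, 3000 per sample. The mice were either wild type or Mx1-cre; Mettl3fl/fl, in which a Cre that interferon switches on in blood-forming cells, and in other tissues that respond to interferon, removes floxed parts of Mettl3, the catalytic subunit of the m6A (N6-methyladenosine) methyltransferase. Both genotypes received 5 injections of 10 µg pIpC, an interferon inducer, every other day, and were analysed 10 days after the last, so the controls share the interferon treatment. Polyadenylated RNA of each genotype was split with an antibody against m6A into 3 fractions (input, m6A-tagged and unbound) with 3 libraries each, 18 in all. The 3 fractions of a replicate share its sample, per the labels. The study asked which transcripts of HSCs carry m6A that depends on Mettl3.

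AP-1 is a dimer of a Jun protein with a Fos, a Jun or an ATF protein, which binds DNA through a basic region and dimerizes through a leucine zipper. Egr1 binds DNA through zinc fingers and is known in HSCs as a regulator of quiescence and of retention in the marrow. Immediate early genes are transcribed within minutes of a signal without new protein synthesis, mostly through serum response factor, CREB and related factors that MAP kinases act on, and their short-lived mRNAs are soon degraded. They are also known to be induced when cells are taken out of a tissue and sorted.

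The promoters of Jun, Junb and Fos are shown because these 3 genes carry most of the AP-1 RNA described below and are known for different upstream elements. Each line holds the 250 bases before the start of the gene, 5′ to 3′ on the gene's own strand, from RefSeq on GRCm38.p6. The windows are chr4:95052223-95052472 on the minus strand for Jun, chr8:84978749-84978998 on the minus strand for Junb and chr12:85473640-85473889 on the plus strand for Fos. Capitals mark the variant cAMP response element TGACATCA, the response element core TGACG, the CCAAT box and the TATA box TATAAA, as searched on this strand.
Jun: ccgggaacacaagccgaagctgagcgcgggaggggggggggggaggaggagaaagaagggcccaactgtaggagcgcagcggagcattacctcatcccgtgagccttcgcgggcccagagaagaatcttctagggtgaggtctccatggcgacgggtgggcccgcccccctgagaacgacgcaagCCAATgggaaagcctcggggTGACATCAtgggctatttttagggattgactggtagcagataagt
Junb: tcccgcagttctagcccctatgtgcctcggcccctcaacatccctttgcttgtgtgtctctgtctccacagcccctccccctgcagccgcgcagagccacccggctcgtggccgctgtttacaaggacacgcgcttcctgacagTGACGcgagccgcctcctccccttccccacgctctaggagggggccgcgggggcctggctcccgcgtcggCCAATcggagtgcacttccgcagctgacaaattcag
Fos: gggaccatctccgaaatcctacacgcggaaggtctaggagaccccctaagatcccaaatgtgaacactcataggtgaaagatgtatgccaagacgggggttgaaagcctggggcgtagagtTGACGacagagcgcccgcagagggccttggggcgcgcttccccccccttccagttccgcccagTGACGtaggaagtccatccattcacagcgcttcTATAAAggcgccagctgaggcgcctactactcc

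In the Jun window, TGACATCA lay 45 to 38 bases before the start and CCAAT 65 to 61 bases before it. The Junb window held TGACG at 106 to 102 bases and CCAAT at 36 to 32 bases before the start. The Fos window held TGACG at 129 to 125 and at 66 to 62 bases and TATAAA at 33 to 28 bases before the start. Promoter entries were used for 8 of the 10 genes, without Egr1 and Ier2. On either strand, TGACG was in 4 of these 8 (Atf3, Fos, Fosb and Junb) and in 17.8% of all 32851 promoter windows of that length. TGACATCA was in the Jun window alone among the 8 and in 2.93% of all windows. CCAAT was in 3 (Ier5, Jun and Junb) against 33.8%, the GC box GGGCGG in 6 against 32.7%, and TATAAA, searched on the gene's strand, in Fos alone against 7.59%. The full element TGACGTCA (1.55% of all windows), the AP-1 site TGACTCA (4.46%) and the CArG box, to which serum response factor binds (1.47%), were found in 0 of 8. TGACGTCA contains TGACG, so these shares overlap, and a match is a description of the letters alone. G and C made up 61.2%, 66.4% and 58.4% of the Jun, Junb and Fos windows, against a median of 52.4% for all promoters. The shares of all windows were not matched for this. Bases further upstream than 250 were not searched, so a count of 0 does not mean that a gene lacks the element.

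The RPKM values that follow are means of 3 libraries made by the authors, without their spread, so a difference between 2 of them has no replicate check and no p-value. Depth was between 9.42 and 37.2 M reads per library, and it differed between the genotypes. Input libraries had 28.3 to 37.2 M reads in wild type and 9.42 to 30.1 M in Mettl3-deficient cells. Unbound libraries had 24.3 to 27.4 M and 12.2 to 27.3 M, and m6A-tagged libraries 30.3 to 35 M and 25.9 to 33.6 M, in the same order. The shallowest library of each fraction was thus Mettl3-deficient. Mettl3 itself stood at 36.4, 33.2 and 36.1 RPKM in wild-type input, unbound and m6A-tagged RNA and at 19.6, 11.2 and 17.4 RPKM in the Mettl3-deficient fractions, and reads outside the deleted part count towards it. All 12 HSC markers had a mean of at least 1 RPKM, with summed levels of 1112 RPKM in wild-type input and 1287 RPKM in Mettl3-deficient input. Markers of other cells moved with the genotype. Summed input levels were 6730 against 1204 RPKM for 9 granulocyte genes, 773 against 396 RPKM for 6 monocyte and macrophage genes, 718 against 5.80 RPKM for 2 eosinophil genes, 119 against 24.9 RPKM for 5 erythroid genes, 658 against 257 RPKM for 4 megakaryocyte genes and 445.5 against 994.5 RPKM for 8 lymphoid genes, wild-type named before Mettl3-deficient. The T cell receptor complex genes Cd3e and Cd3g were at or near 0 in both inputs. The part of these cells in the genotype values below was not tested, and in bulk RNA fewer cells of a type and less RNA per cell cannot be told apart.

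In wild-type input RNA, Ier2 was highest at 78.6 RPKM, followed by Fos at 57.0, Junb at 38.7, Jun at 35.7, Egr1 at 16.6, Jund at 9.26, Ier5 at 4.62, Fosl2 at 0.903 and Fosb at 0.546 RPKM. Atf3 had no read there. In Mettl3-deficient input the order was Fos at 179 RPKM, then Ier2 at 57.6, Junb at 46.1, Jun at 46.0, Egr1 at 10.6, Jund at 2.12, Ier5 at 1.33, Fosb at 0.460, Fosl2 at 0.416 and Atf3 at 0.169 RPKM. Whether neighbours in these orders differ beyond the spread over libraries cannot be read from the means. The 5 highest genes covered a wide range of expression, from percentile 17.7 (Egr1) to percentile 77.0 (Ier2) of the genes compared in wild-type input and from 7.88 (Egr1) to 92.9 (Fos) in Mettl3-deficient input. Without the RPKM minimum, 7 of the 10 genes were 2-fold lower in wild-type unbound than in input RNA, with 1 RPKM added to both. This compares with 19.3% of all genes that were lower and 1.76% that were higher. Atf3 was without a read in any wild-type fraction.

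**Figure D1:**
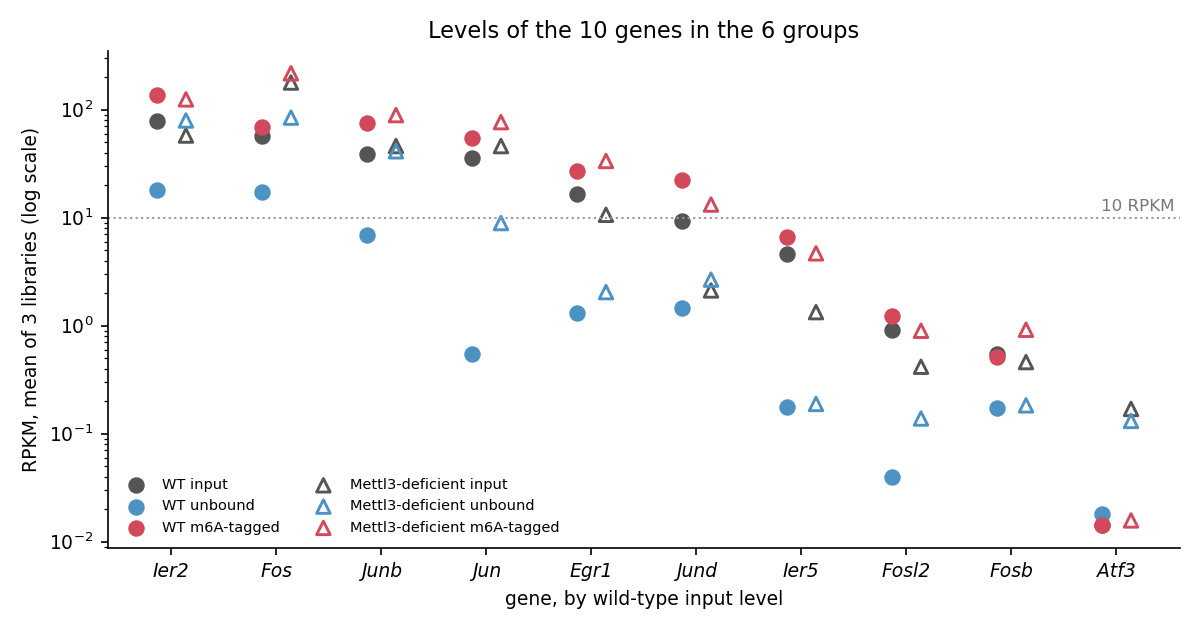
RPKM (log scale) of each of the 10 genes in wild-type (WT, filled circles) and Mettl3-deficient (open triangles) input, unbound and m6A-tagged RNA, each point being the authors' mean of 3 libraries with no error bar. Jun spans 0.541 RPKM in wild-type unbound to 76.7 RPKM in Mettl3-deficient m6A-tagged RNA, and Fos stands at 179 RPKM in Mettl3-deficient against 57.0 RPKM in wild-type input.

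Jun (chromosome 4, 95049036 to 95052222), the founding AP-1 subunit and a strong activator, stood at 35.7 RPKM in wild-type input, 0.541 in unbound and 54.7 in m6A-tagged RNA. The Mettl3-deficient cells had 46.0, 8.92 and 76.7 RPKM in the same order. Of the 10 genes, it had the highest ratio of m6A-tagged to unbound RPKM in wild-type cells. Its reads in the 3 wild-type unbound libraries could be worked out as 38, 89 and 8, deepest library named before the others, or 1.69 ± 1.53 reads per M (SD, n = 3). These reads rest on the span taken as the gene length, which the search for lengths did not return. On that length all 3 libraries held few Jun reads, and the deepest library was not the one with the most.

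Junb (chromosome 8, 84976909 to 84978748), a Jun protein that restrains proliferation and whose loss is known to expand myeloid cells, stood at 38.7, 6.94 and 75.0 RPKM in wild-type input, unbound and m6A-tagged RNA. The Mettl3-deficient values were 46.1, 41.2 and 89.2 RPKM. The m6A-tagged level was above input in both genotypes, while the unbound level was far below input in wild-type and close to it in Mettl3-deficient RNA. The wild-type unbound libraries held 295, 314 and 380 Junb reads, or 12.7 ± 2.57 reads per M (SD, n = 3). These reads rest on the span taken as the gene length, which the search for lengths did not return. By chance, 0.0786 whole-read solutions were due, against a limit of 0.1. On that length the column was even, with 38.4% of the reads in the library that had most.

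Jund (chromosome 8, 70697739 to 70700616), the Jun protein that is usually present without a stimulus, stood at 9.26, 1.47 and 22.5 RPKM in the wild-type fractions, and at 2.12, 2.67 and 13.2 RPKM in the Mettl3-deficient ones. With 1 RPKM added to both, the Mettl3-deficient input level was 3.29-fold lower than the wild-type one. The 3 Mettl3-deficient input libraries held 113, 277 and 17 reads, or 3.76, 12.5 and 1.80 reads per M. The reads of the wild-type input libraries could not be worked out, so the libraries of the genotypes were not compared singly. The gene length that the values give, 2878 bases, equals the RefSeq span, as for a gene without introns.

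Across the Jun family, Jun and Junb made up like shares of the input, and the unbound fraction was mostly Junb. Junb made up 46.3% of the summed RPKM of Jun, Junb and Jund in wild-type input, 77.6% in unbound and 49.3% in m6A-tagged RNA, and 48.9%, 78.1% and 49.8% in the Mettl3-deficient fractions. The Jun share was 42.7%, 6.04% and 35.9% in the wild-type fractions and 48.9%, 16.9% and 42.8% in the Mettl3-deficient ones. Jund made up between 11.1% and 16.4% in the wild-type fractions and between 2.25% and 7.39% in the Mettl3-deficient ones. Both genotypes thus shared the Junb-rich unbound fraction, although the summed unbound level of the family was 8.95 RPKM for wild-type and 52.8 RPKM for Mettl3-deficient RNA.

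**Figure D2:**
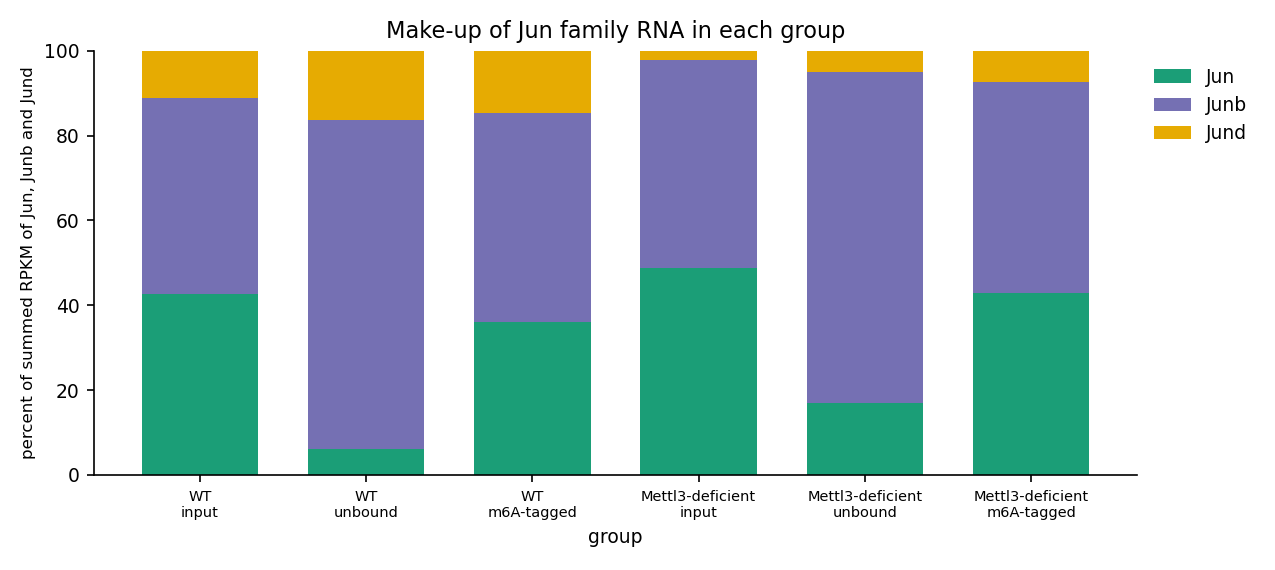
Percent of the summed RPKM of Jun, Junb and Jund that each gene makes up in the 6 groups, wild type (WT) at the left, each bar being made from the authors' means of 3 libraries without error bars. Junb takes 77.6% and 78.1% of the bar in the unbound fractions, against 46.3% and 48.9% in the inputs.

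Fos (chromosome 12, 85473890 to 85477274), which dimerizes with Jun proteins and does not form dimers with itself, stood at 57.0, 17.3 and 69.4 RPKM in wild-type input, unbound and m6A-tagged RNA and at 179, 84.5 and 217 RPKM in the Mettl3-deficient fractions. Each Mettl3-deficient column was above the wild-type column of the same fraction. With 1 RPKM added to both, the difference was 3.10-fold in input, 4.67-fold in unbound and 3.10-fold in m6A-tagged RNA. Fos made up between 97.5% and 99.6% of the summed RPKM of Fos, Fosb and Fosl2 in the 6 groups. The summed Jun family was 1.43 times the summed Fos family in wild-type input and 0.525 times in Mettl3-deficient input. The reads of single libraries could not be worked out for Fos, so it is not known here whether 1 library carries the higher Mettl3-deficient mean.

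Fosb (chromosome 7, 19302696 to 19310118), a Fos protein with a strong activation domain, was low throughout, between 0.172 RPKM in wild-type unbound and 0.917 RPKM in Mettl3-deficient m6A-tagged RNA. Its reads could be worked out in every group, and they came from few libraries. Wild-type input held 85, 120 and 6 reads, unbound 0, 49 and 0, and m6A-tagged RNA 0, 111 and 72. Mettl3-deficient input held 0, 111 and 0 reads, unbound 0, 0 and 23, and m6A-tagged RNA 334, 8 and 2. In 4 of the 6 groups, then, a single library held nearly all the reads, and the Mettl3-deficient m6A-tagged mean of 3.43 ± 5.64 reads per M (SD, n = 3) was that of 1 library, which held 97.1% of its reads.

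Fosl2 (chromosome 5, 32136472 to 32157840), also called Fra-2, which lacks the activation domain of Fos, stood at 0.903, 0.0396 and 1.22 RPKM in the wild-type fractions and at 0.416, 0.138 and 0.897 RPKM in the Mettl3-deficient ones. The wild-type unbound libraries held 0, 0 and 15 reads. Mettl3-deficient input held 64, 105 and 6 reads, unbound 11, 0 and 24, and m6A-tagged RNA 343, 173 and 16. The shallowest input library and the shallowest m6A-tagged library were the lowest of their groups also per M reads, at 0.637 and 0.618.

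Egr1 (chromosome 18, 34861207 to 34864956) stood at 16.6, 1.31 and 26.8 RPKM in wild-type input, unbound and m6A-tagged RNA and at 10.6, 2.04 and 33.5 RPKM in the Mettl3-deficient fractions. It was lowest in the unbound fraction and highest in the m6A-tagged one in both genotypes. The other Egr genes were nearly silent. Egr2, Egr3 and Egr4 were at no more than 0.782 RPKM in any group, with wild-type input at 0.0100, 0.199 and 0.0146 RPKM. These wild-type input values are what the 1 read added per gene and library gives a gene without reads, as for Atf3. They differ with the gene length used and do not rank the 3 genes. Nab1 and Nab2, corepressors that bind Egr proteins, were present at 9.92 and 15.7 RPKM in wild-type and 5.34 and 11.9 RPKM in Mettl3-deficient input.

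Ier2 (chromosome 8, 84661331 to 84662852), a short intronless immediate early gene whose protein is found in the nucleus, stood at 78.6, 18.1 and 137 RPKM in the wild-type fractions. In Mettl3-deficient cells it stood at 57.6, 79.5 and 125 RPKM. The unbound level was thus below input in wild-type and above it in Mettl3-deficient RNA. Ier5 (chromosome 1, 155096367 to 155099636), a related protein known to act on heat shock factor, stood at 4.62, 0.175 and 6.69 RPKM in the wild-type fractions and at 1.33, 0.188 and 4.68 RPKM in the Mettl3-deficient ones. Its 3 Mettl3-deficient input libraries held 106, 132 and 32 reads and its unbound libraries 0, 6 and 15. No unbound library reached the lowest input library, and this was the single pair of Ier5 fractions of 1 genotype with all reads worked out.

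Atf3 (chromosome 1, 191170296 to 191183333), a stress-induced ATF protein that dimerizes with Jun proteins, had 0 reads in all 9 wild-type libraries. For wild-type input, 3 reads over the group would be 0.0303 reads per M, which is the upper limit a count of 0 allows for counting error. In Mettl3-deficient RNA it had 0, 20 and 0 reads in input, 0, 0 and 8 in unbound and 0 in each m6A-tagged library. A single library held all the reads of each fraction that had any.

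The libraries could be compared singly for the columns with few reads. Of 60 columns (10 genes in 6 groups), 24 were worked out, over 7 genes, and 18 of these held at least 20 reads. In 8 of the 18 a library was without reads, in 5 a single library supplied more than 90% of the reads, and the median share of the library with most reads was 67.0%. These are the low columns, so they show what 3 libraries can hide in a mean and not the spread of Fos, Egr1 or Ier2. Between groups, 22 pairs of worked-out columns were compared with a two-sided exact permutation test of the mean reads per M, 3 libraries against 3, for which 0.1 is the smallest p possible. Libraries could not be tied to replicate numbers, so the test leaves out that fractions of a replicate share a sample. In 21 pairs the libraries of the groups overlapped. Ier5 in Mettl3-deficient cells alone did not overlap, at 0.552 ± 0.622 reads per M in unbound and 4.30 ± 1.45 in input (SD, n = 3), with an exact permutation p of 0.1 and a Benjamini-Hochberg adjusted p of 1 over the 22. Among 1568 low genes worked out in both fractions with at least 20 reads, 34.4% had every Mettl3-deficient unbound library below every input library, so Ier5 did what many low genes did. No pair passed a threshold of 0.05, which 3 libraries against 3 cannot reach.

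**Figure D3:**
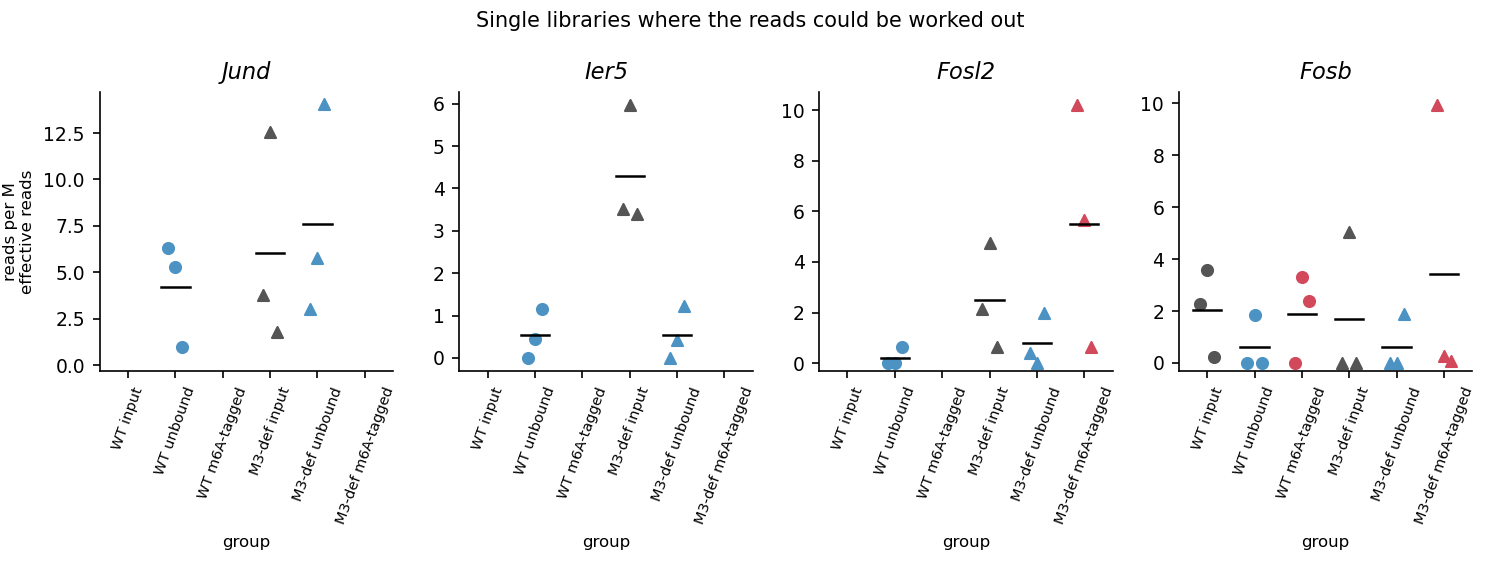
Reads per M effective reads in single libraries for Jund, Ier5, Fosl2 and Fosb, with a line at the mean of 3 libraries; groups without points could not be worked out, circles are wild type (WT) and triangles Mettl3-deficient (M3-def). For Fosb in Mettl3-deficient m6A-tagged RNA a single library at 9.94 stands over the others at 0.262 and 0.0772.

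Ratios between fractions were computed as log2((RPKM + 1)/(RPKM + 1)), a scale that understates the change of low genes, and a difference was counted from 2-fold. An RPKM is a share of its library, so a ratio compares shares and not amounts of RNA. No fragmentation of the RNA is described, so a ratio belongs to a whole gene and does not place a methylated base. In wild-type RNA the m6A-tagged level was above input for all 5 genes compared, by a log2 ratio of 0.94 for Junb, 0.79 for Ier2, 0.66 for Egr1, 0.60 for Jun and 0.28 for Fos. None reached 2-fold, against 3.69% of all genes that were 2-fold higher and 5.23% lower. The median of the 5 genes was 0.66 and that of all genes 0.06. These genes are short, with 7 of the 10 spanning 1522 to 3750 bases against a median of 15996 bases for the genes compared, and the 1043 other genes of at most 5000 bases had a median of 0.21. Junb stood at percentile 95.3 of all genes and Fos at 64.4.

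In Mettl3-deficient RNA the 5 genes were again above input, by 1.57 for Egr1, 1.10 for Ier2, 0.94 for Junb, 0.72 for Jun and 0.28 for Fos on the log2 scale. Egr1 and Ier2 were 2-fold higher (2.97-fold and 2.14-fold), 2 of 5 genes against 1.37% of all genes, and none was 2-fold lower, against 1.45%. Egr1 stood at percentile 99.83 and Ier2 at 99.14 of all genes. Ier2 was at 0.97 with median-ratio and 0.99 with upper-quartile scaling and then missed 2-fold. Of the genes below the RPKM minimum, Jund was 2.29-fold higher in wild-type and 4.57-fold in Mettl3-deficient RNA, Ier5 1.37-fold and 2.43-fold, and Fosl2 1.17-fold and 1.34-fold. Fosb was 1.03-fold lower in wild-type and 1.31-fold higher in Mettl3-deficient RNA, and Atf3 was lower in the Mettl3-deficient ratio, with 0 m6A-tagged against 20 input reads. With 0.1 or 5 RPKM added in place of 1, the 5 genes kept these directions.

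The genotype difference in this ratio, Mettl3-deficient minus wild-type, was 0.91 for Egr1, 0.31 for Ier2, 0.12 for Jun, and 0.00 for both Junb and Fos on the log2 scale. None of the 5 was 2-fold higher or lower, against 7.31% and 2.91% of all genes. Junb was 1.92-fold higher in the m6A-tagged fraction than in input in wild-type and 1.92-fold in Mettl3-deficient RNA, and Fos 1.21-fold and 1.21-fold. With other scalings of the columns the Junb difference moved to -0.06 and -0.10, so its sign is not given here. For Egr1, the wild-type and Mettl3-deficient m6A-tagged levels were 26.8 and 33.5 RPKM and the input levels 16.6 and 10.6 RPKM.

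The unbound fraction separated the genes further. In wild-type RNA all 5 were 2-fold lower in unbound than in input, against 25.5% of all genes that were lower and 4.61% that were higher. The log2 ratios were -4.57 for Jun, -2.92 for Egr1, -2.32 for Junb, -2.06 for Ier2 and -1.66 for Fos, with a median of -2.32 against -0.05 for all genes. Short genes as a whole lay on the other side, with a median of 0.40 for the 1043 other genes of at most 5000 bases. Jun stood at percentile 0.0635 of all genes. Its fold depends on the RPKM added, -5.80 with 0.1 and -2.88 with 5 RPKM on the log2 scale, as does that of Egr1, -3.56 and -1.77.

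In Mettl3-deficient RNA, Jun (-2.25), Egr1 (-1.93) and Fos (-1.07) were 2-fold lower in unbound than in input, 3 of 5 genes against 29.5% of all genes, and 0 were higher, against 18.5%. Junb at -0.16 and Ier2 at 0.46 were both under 2-fold. The median of the 5 genes was -1.07, that of all genes -0.13 and that of the other short genes 0.87. Junb was at 0.01 with median-ratio scaling, so its direction is not given, and Fos was at -0.90, which left 2 of 5 genes 2-fold lower. Egr1 was at -1.15 with 5 RPKM added.

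**Figure D4:**
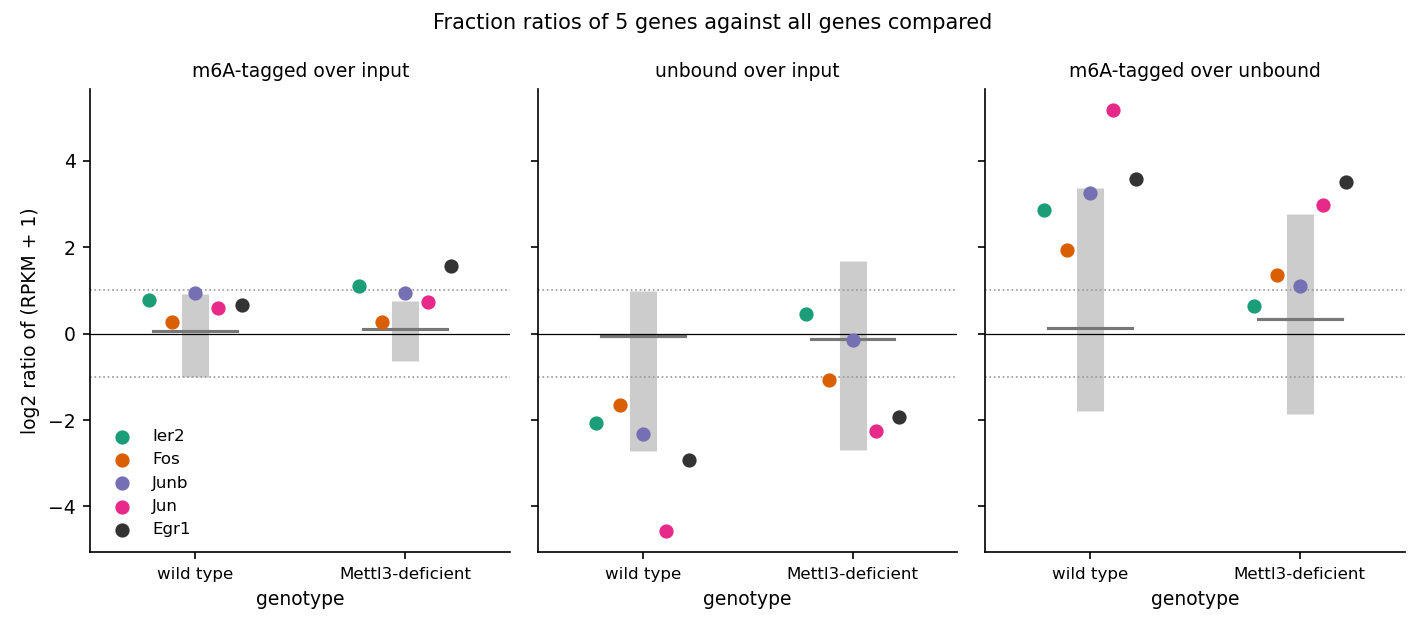
Log2 ratio of (RPKM + 1) for m6A-tagged over input, unbound over input and m6A-tagged over unbound in wild-type and Mettl3-deficient RNA, with coloured points for the 5 genes, a grey bar from the 5th to the 95th percentile of the 6295 genes compared, a grey line at their median and dotted lines at 2-fold. In wild-type RNA all 5 genes lie at or under -1.66 in unbound over input, while in Mettl3-deficient RNA they spread from -2.25 (Jun) to 0.46 (Ier2).

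The m6A-tagged and unbound fractions were also compared directly, a ratio that shares the m6A-tagged column with the ratios to input above. In wild-type RNA all 5 genes exceeded 2-fold in favour of the m6A-tagged fraction, against 31.5% of all genes that were higher and 19.3% that were lower. Jun was 36.1-fold higher, Egr1 12.0-fold, Junb 9.57-fold, Ier2 7.23-fold and Fos 3.84-fold. The folds of Jun and Egr1 depend on the RPKM added, with log2 ratios of 6.42 and 4.25 for 0.1 RPKM and 3.43 and 2.33 for 5 RPKM. The median was 3.26 on the log2 scale against 0.12 for all genes and -0.20 for the other short genes. In Mettl3-deficient RNA 4 of 5 were 2-fold higher, against 33.7% of all genes, with 16.9% lower. Egr1 was 11.3-fold higher, Jun 7.84-fold, Fos 2.55-fold and Junb 2.14-fold, while Ier2 was 1.56-fold higher. With median-ratio scaling Junb was at 0.80 on the log2 scale, which left 3 of 5 past 2-fold. With 5 RPKM added Egr1 was at 2.45.

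The genotype difference in m6A-tagged over unbound was -2.21 for Jun, -2.21 for Ier2, -2.16 for Junb, -0.59 for Fos and -0.08 for Egr1 on the log2 scale. Jun, Junb and Ier2 were thus 2-fold lower in Mettl3-deficient than in wild-type RNA, 3 of 5 genes against 22.8% of all genes, and 0 of 5 were higher, against 23.7%. The median was -2.16 against -0.01 for all genes and -0.71 for the other short genes. For Jun the value was -3.33 with 0.1 RPKM added and -0.88 with 5 RPKM, under 2-fold in the latter. Measured as a fold, the unbound column of each of these 3 genes differed more between the genotypes than its input or m6A-tagged column, going from 0.541 to 8.92 RPKM for Jun, 6.94 to 41.2 RPKM for Junb and 18.1 to 79.5 RPKM for Ier2.

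Between genotypes, 1 of the 5 genes passed 2-fold in input, namely Fos, 3.10-fold higher in Mettl3-deficient RNA and at percentile 99.38 of all genes, against 2.38% of all genes that were higher and 6.67% lower. Jun was at 0.36, Junb at 0.25, Ier2 at -0.44 and Egr1 at -0.59 on the log2 scale. In m6A-tagged RNA the 1 gene past 2-fold was again Fos, at 3.10-fold, against 6.02% of all genes that were higher and 7.15% lower. Jun was at 0.48, Egr1 at 0.31, Junb at 0.25 and Ier2 at -0.13. In unbound RNA Jun (6.44-fold), Junb (5.32-fold), Fos (4.67-fold) and Ier2 (4.23-fold) were higher in Mettl3-deficient RNA, 4 of 5 genes against 19.7% of all genes, with 22.7% lower, and Egr1 was 1.32-fold higher. The Jun ratio was 3.82 on the log2 scale with 0.1 RPKM added and 1.33 with 5 RPKM. The median of the 5 genes in unbound RNA was 2.22, against 0.02 for all genes and 0.58 for the other short genes. Below the RPKM minimum, Jund and Ier5 were 3.29-fold and 2.41-fold lower in Mettl3-deficient input, and 1.65-fold and 1.35-fold lower in m6A-tagged RNA. The granulocyte and eosinophil levels given above moved with the same contrast.

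**Figure D5:**
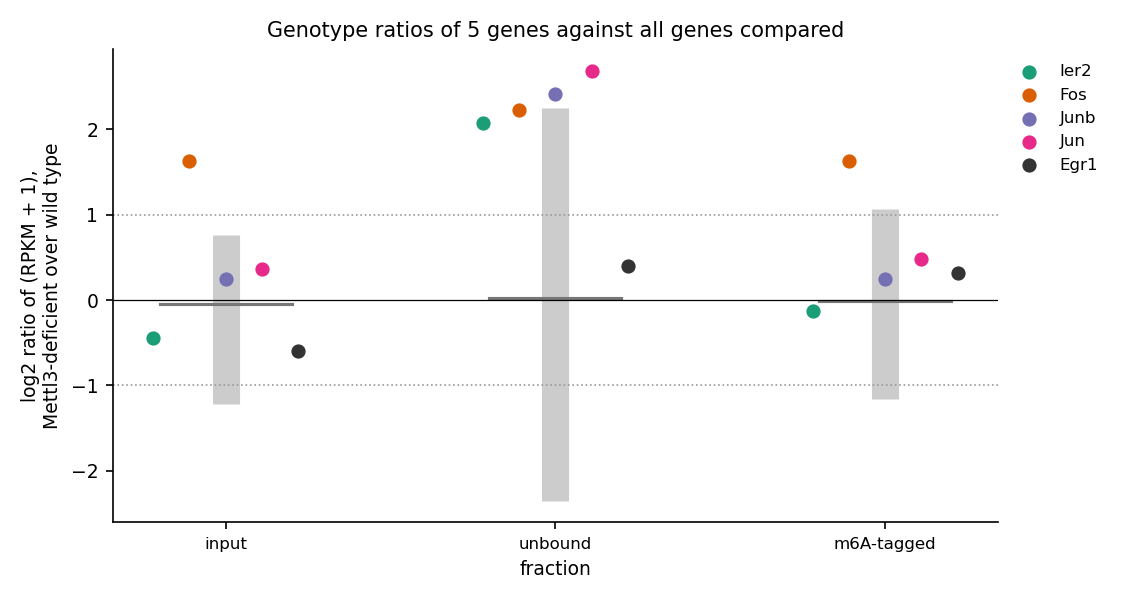
Log2 ratio of (RPKM + 1), Mettl3-deficient over wild type, in input, unbound and m6A-tagged RNA, with coloured points for the 5 genes, a grey bar from the 5th to the 95th percentile of the 6295 genes compared, a grey line at their median and dotted lines at 2-fold. Fos lies at 1.63 in input and in m6A-tagged RNA, and in unbound RNA 4 of the 5 genes lie between 2.08 and 2.69.

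Scaling moved the background of some of these counts. With median-ratio scaling, which sets the typical gene to no difference, the shares of all genes past 2-fold were 2.72% upward and 6.18% downward in wild-type m6A-tagged over input RNA, 0.794% and 2.07% in the Mettl3-deficient ratio, and 27.4% and 22.8% in Mettl3-deficient m6A-tagged over unbound. With upper-quartile scaling the shares were 0.858% and 2.02% in Mettl3-deficient m6A-tagged over input, 5.43% and 4.48% in its genotype difference, 0.699% and 30.0% in wild-type unbound over input and 12.9% and 34.9% in the Mettl3-deficient ratio. The median of all genes moved from 0.33 to 0.05 for Mettl3-deficient m6A-tagged over unbound with median-ratio scaling. With upper-quartile scaling it moved from -0.13 to -0.39 for Mettl3-deficient and from -0.05 to -0.27 for wild-type unbound over input. These shifts are small beside the wild-type ratios of Jun, Junb and Ier2 in unbound over input and in m6A-tagged over unbound RNA. They are not small beside the Mettl3-deficient ratios of Junb and Ier2. In m6A-tagged over unbound, median-ratio scaling took Ier2 from 0.64 to 0.35 and Junb from 1.09 to 0.80 on the log2 scale.

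Other genes of the same kind were read from lists. Of 50 other immediate early genes, 19 were compared. In wild-type m6A-tagged over unbound RNA 15 of the 19 were 2-fold higher and 0 lower, against 31.5% and 19.3% of all genes, with a median of 2.17 on the log2 scale against 0.12. Sertad1, a coactivator of E2F factors, was 50.1-fold higher, the proliferation factor Myc 25.6-fold, the mRNA decay factor Zfp36l2 14.8-fold and the stress gene Gadd45g 13.9-fold. In Mettl3-deficient RNA 15 of the 19 were higher, against 33.7% of all genes, with a median of 1.46 against 0.33. The genotype difference was 2-fold lower for 8 and higher for 3, against 22.8% and 23.7% of all genes. Between inputs 2 of the 19 were 2-fold higher in Mettl3-deficient RNA and 3 lower, against 2.38% and 6.67% of all genes. They included the interferon-responsive factor Irf1, 2.44-fold higher, and Zfp36l2, Cebpb and Gadd45g, 4.06-fold, 3.37-fold and 2.28-fold lower. Dusp1, a phosphatase that inactivates MAP kinases, stood at 29.7 RPKM in wild-type input and 65.1 RPKM in Mettl3-deficient input.

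Of 23 other AP-1 and related leucine zipper genes, 8 were compared. In wild-type m6A-tagged over unbound RNA 6 of the 8 were 2-fold higher, led by Nfe2l2, the antioxidant response factor, at 18.0-fold and Batf2 at 11.0-fold, and 4 of 8 were higher in Mettl3-deficient RNA, against 31.5% and 33.7% of all genes. The genotype difference was 2-fold lower for 5 of 8 and higher for 0, against 22.8% and 23.7%. Nfe2, the erythroid and megakaryocyte factor, had the widest of these, 9.36-fold lower, with unbound levels of 57.0 RPKM for wild-type and 699 RPKM for Mettl3-deficient RNA. Batf, an AP-1 protein best known from lymphoid cells, stood at 80.2 RPKM in wild-type input and 119.5 RPKM in Mettl3-deficient input, and Fosl1, the fourth Fos gene, at 2.09 and 0.945 RPKM.

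Among 33 genes that act upstream (MAP kinases, their activators, and the factors and coactivators they reach), 16 were compared. Of these 8 were 2-fold higher in m6A-tagged over unbound RNA in each genotype, against 31.5% of all genes in wild-type and 33.7% in Mettl3-deficient RNA, with medians of 0.72 in wild-type and 1.08 in Mettl3-deficient RNA. Between inputs 1 of 16 was 2-fold lower and 0 higher, against 6.67% and 2.38%. That gene was Mapk3, which encodes the kinase ERK1, at 55.7 RPKM in wild-type input and 9.31 RPKM in Mettl3-deficient input. Of 12 genes that turn over or repress Jun and Fos proteins, 5 were compared, and 4 of the 5 were 2-fold higher in wild-type m6A-tagged over unbound RNA and 1 of 5 in the Mettl3-deficient ratio, against 31.5% and 33.7% of all genes. Det1, an adaptor of the ubiquitin ligase that degrades Jun, was 3.97-fold higher in the wild-type ratio.

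Of 12 reported targets of AP-1 or Egr1, 8 were compared, and 1 of 8 was 2-fold lower between inputs and 0 higher, against 6.67% and 2.38% of all genes. This was Tgfb1, at 30.6 RPKM in wild-type input and 3.03 RPKM in Mettl3-deficient input, while Ccnd1, the cyclin D1 gene, stood at 18.1 and 15.3 RPKM. In m6A-tagged over unbound RNA 2 of 8 were 2-fold higher and 2 lower in wild type, against 31.5% and 19.3%, with a median of -0.30. Heat shock genes are induced along with immediate early genes when tissue is dissociated. Of 11, 7 were compared, and 0 of 7 differed 2-fold between inputs, with a median of -0.04. Hspa1a, the inducible Hsp70 gene, lay under the RPKM minimum at 0.485 RPKM in wild-type input and 5.52 RPKM in Mettl3-deficient input. The part of cell handling in the Fos levels was not tested.

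The genes nearest to the mean profile of the 5 genes over the 6 groups, by the distance between centred log2(RPKM + 1) profiles, were Klhl26, 4930444A02Rik, Rrp15, Mtap1s and Mgat2, with distances from 0.32 to 0.47. Klhl26 stood at 9.32, 0.427 and 15.3 RPKM in the wild-type fractions and 12.9, 6.08 and 20.6 RPKM in the Mettl3-deficient ones. The single nearest gene was Csgalnact1 for Jun, Cno for Junb, Dusp1 for Fos, Zbtb7a for Egr1 and Gpn2 for Ier2. The distance was shortest for Junb and Cno at 0.20 and longest for Egr1 and Zbtb7a at 0.71. Dusp1 stood at 29.7, 9.54 and 32.3 RPKM in the wild-type fractions and 65.1, 36.5 and 89.5 RPKM in the Mettl3-deficient ones. Like Fos, it had each Mettl3-deficient column above the wild-type one. It was picked for its nearness to Fos over these same 6 columns, so this likeness is not a separate result.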

How the data were processed

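RNA of sorted HSCs was measured by Smart-seq2 after m6A immunoprecipitation, with paired reads of 150 bases, in 18 libraries of 6 groups. Replicates are biological, per the series' design text. The authors deposited RPKM, 1 column per group, in 1 table per genotype. The submitters' processing notes name the build mm10 and the tools Picard and edgeR, without their roles or versions. Which aligner and counter were used is not given in the sources used here. Smart-seq2 does not mark strand, so reads of overlapping antisense genes count towards a gene.

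The values show that each deposited column is the mean RPKM of 3 libraries with 1 read added per gene and library. The tests planned for values per library (edgeR, limma) could therefore not be run. Each library's depth followed from the spacing of low values. These depths are not whole numbers and are called effective depths. Reads of single libraries were solved where a single whole-read solution existed and at most 0.1 solutions were due by chance; this held for 92% of 12332 low values tried, and 7.92% had no whole-read solution. Tested on simulated data for 6000 genes, the solving returned the simulated reads in 100% of 5767 solved values. That test covered the solving of reads alone. How the lengths of the genes described here were found was not tested, so the 100% is no check of their reads. Libraries were ordered by depth, which is not the replicate number. Lengths of the low genes were read from columns without reads. For Jund, Fosb, Fosl2, Ier5 and Atf3 it was the only length up to the span, multiples aside, with whole-read solutions in the lowest columns. Jun, Junb and Ier2 were given their span as intronless genes, since this search returned no length for them. Intervals and limits cover counting error alone.

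Of the 11 comparisons, each used 1 RPKM added, a mean of at least 10 RPKM and a 2-fold difference. Alternatives added 0.1 or 5 RPKM, used no minimum or 50 RPKM, scaled the columns, or took the added read off the Jun family shares, which then moved by less than 1 percentage point. The 10 genes, the lists, and the sizes were chosen with earlier results of these data known. Named are all 10 genes, up to 4 genes of each list with the widest ratio in the comparison described, and the nearest profiles; Dusp1, Batf, Fosl1, Ccnd1, Hspa1a and the Egr and Nab genes were named outside that rule, some after their values were seen. Gene positions, promoters and names are from RefSeq (GRCm38.p6), and 8 of 10 genes had a promoter entry. Python 3.11.15, numpy 2.4.6, pandas 2.3.3 and scipy 1.17.1 were used.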

Additional observations from a re-analysis of the deposited data

Results flagged for a closer look

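Ier2 had opposite directions in the 2 genotypes in the ratio of unbound to input RNA. The log2 ratio was -2.06 in wild-type RNA, at 18.1 against 78.6 RPKM, and 0.46 in Mettl3-deficient RNA, at 79.5 against 57.6 RPKM, a difference of 2.52. The Mettl3-deficient ratio itself was under 2-fold. The difference was not tested, since each value is a mean of 3 libraries without its spread, and the reads of single libraries could not be worked out for Ier2.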

How the results depend on the processing

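The 5 genes' ratios were recomputed with 0.1 or 5 RPKM added and with both scalings, and 206 of 220 stayed within 1.5-fold, 14 moved further, and 0 that passed 2-fold changed sign. The 14 that moved were all of Jun or Egr1, with 0.1 or 5 RPKM added. With 5 RPKM added the median of wild-type m6A-tagged over unbound was 2.62 and that of its genotype difference -0.88. Without a minimum, over all 10 genes, 1 was 2-fold higher in wild-type and 4 in Mettl3-deficient m6A-tagged over input, 8 were higher in wild-type m6A-tagged over unbound, and 2 were lower between inputs, against 3.47%, 1.19%, 22.9% and 5.31% of all genes; the medians were -0.52 for the genotype difference in m6A-tagged over unbound, -0.31 for Mettl3-deficient unbound over input and 0.48 between the unbound fractions. With a minimum of 50 RPKM, Fos and Ier2 were left. The median was then 2.40 in wild-type m6A-tagged over unbound, with 2 genes higher (14.9% of all genes), and -1.40 in its genotype difference, with 1 lower (19.2%); 1 gene was higher in Mettl3-deficient m6A-tagged over input (0.705%) and 1 in m6A-tagged over unbound (16.6%), 2 were lower in wild-type unbound over input (10.3%), 1 in the Mettl3-deficient ratio (14.4%, median -0.31), and 2 were higher between unbound fractions (17.3%). These counts fell because fewer genes were compared. Median-ratio scaling also left 3 genes in place of 4 higher in Mettl3-deficient m6A-tagged over unbound and 2 in place of 3 lower in unbound over input. With either scaling 1 gene in place of 2 was 2-fold higher in Mettl3-deficient m6A-tagged over input. Single-library reads were an alternative chosen after seeing the data. No paired analysis was possible because the deposited columns are group means and the libraries worked out from them cannot be tied to replicate numbers. Leaving out a library of the higher genes and a count test were not run, since their columns are means alone.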
